A study of Homo sapiens with 19 samples.

Results

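Acute-phase proteins are secreted factors whose production rises steeply during inflammation, classically in the liver, under the control of the cytokines IL-6 and IL-1. These cytokines act through STAT3, C/EBP and NF-kappaB transcription factors. Epithelial and tumour cells can also make several of these proteins. The 8 genes described here encode serum amyloids (SAA1 and SAA2), a lipopolysaccharide-binding protein (LBP), serine protease inhibitors (SERPINA1 and SERPINA3), a lipocalin that binds bacterial siderophores (LCN2), and secreted chitinase-like proteins that bind but do not cut chitin (CHI3L1 and CHI3L2). They were picked by name, with earlier results of these data known, for a large rise at 16 h of sphere culture. Their levels in that comparison are therefore given as a description, without a test. The 3 tables list 19021, 26955 and 28870 genes. All 8 genes are listed in both RNA interference tables and 6 are listed in the culture table, where SERPINA3 and CHI3L1 are not among the listed genes.

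RNA was sequenced from MDA-MB-231, a mesenchymal breast cancer cell line without hormone receptors, in 19 libraries. Adherent cells (n = 2) grew in DMEM with 10% fetal calf serum. Spheres grew in suspension on non-adherent plates in DMEM/F12 medium with B27 supplement (1 in 50), 20 ng/ml EGF and 20 ng/ml FGF, and were taken at 16 h (n = 2) or 5 d (n = 2). For RNA interference, cells were reverse transfected and kept 48 h in the sphere medium. One experiment used a control siRNA (siNC, n = 3) and 2 siRNAs against SCIRT, a long non-coding RNA (siSCIRT 1 and siSCIRT 2, n = 3 each). The other used siNC (n = 2) and an siRNA against EZH2 (n = 2), the histone methyltransferase of Polycomb repressive complex 2. All groups come from this one cell line. Whether they were grown separately is not given by the labels, so the p-values cover the spread among libraries, which may be technical. In the limma fits that spread is partly taken from other genes of like level, and not only from the libraries of the gene itself.

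The recovered totals were 6104222 to 14781941 reads per library in the culture table, 38635418 to 62218847 in the siSCIRT table and 27989577 to 38955312 in the siEZH2 table. Each table was normalized on its own, so groups were compared within a table, and RPM values (reads scaled to a library total of 1000000) are given where tables are set side by side. VIM, a mesenchymal marker of this line, stood at 1753 ± 174 (SD, n = 3) and 2958 ± 556 (SD, n = 2) RPM in the siNC groups of the siSCIRT and siEZH2 tables. ALB, the main liver product, reached at most 20 reads in a library and is not among the genes listed in the culture table. Summed over the liver markers, levels ran from 0 to 0.681 RPM in adherent cells and 16 h spheres, 2.46 to 2.56 at 5 d, and 2.99 to 7.96 in the siNC groups, mostly APOA1, the only one of the 6 listed in the culture table. The summed macrophage and neutrophil markers lay at 3.38 to 4.51 RPM in adherent cells, 4.27 to 6.24 at 16 h, 7.57 to 9.99 at 5 d and 10.5 to 22.3 in the siNC groups, with 3 of 7 listed in the culture table and 5 in the others. Their part in the results was not tested. PTPRC, the general leukocyte marker, had 0 reads in both 16 h libraries. In adherent cells, by contrast, all 3 listed macrophage and neutrophil markers, PTPRC among them, had at least 10 reads in a library. SCIRT, listed as RP5-1120P11.1, fell by 1.16 ± 0.16 with siSCIRT 1 and by 1.10 ± 0.16 with siSCIRT 2 on the log2 scale (SE, limma adjusted p = 0.000325 and 0.000659), and EZH2 fell by 0.92 ± 0.15 with siEZH2 (limma adjusted p = 6.28e-08). EZH2 was also lower with siSCIRT 1 and siSCIRT 2, by -0.53 ± 0.08 and -0.50 ± 0.08 (limma adjusted p = 0.000555 and 0.00101), and SCIRT differed by -0.37 ± 0.18 with siEZH2 (limma adjusted p = 0.239). The kit does not mark strand, so reads of SCIRT cannot be told from those of C6orf223, which overlaps it.

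**Figure D1:**
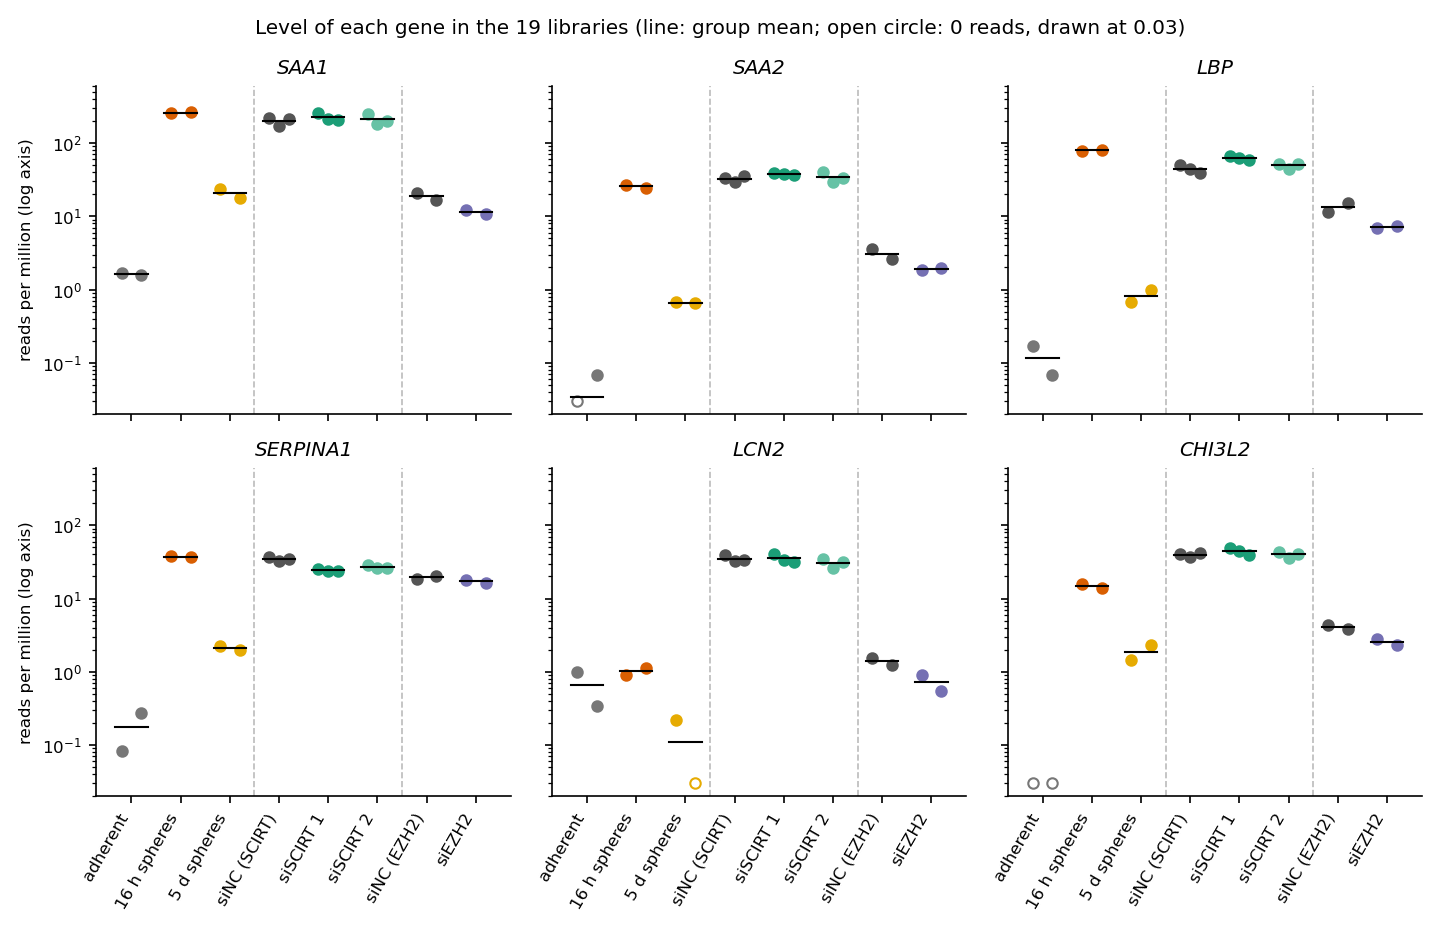
RPM, or reads scaled to a library total of 1000000 (log axis), of 6 genes in each of the 19 libraries, one point per library, with a line at the group mean and open circles for 0 reads; dashed lines separate the 3 tables. SAA1 runs from 1.56 RPM in adherent cells to 266 in 16 h spheres, while LCN2 stays between 0 and 1.14 in all 6 culture libraries and lies at 26.2 to 41.1 in the siSCIRT table.

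SAA1 and SAA2 encode the acute-phase serum amyloids, apolipoproteins that bind high-density lipoprotein and signal through TLR2 and formyl peptide receptors. The genes lie next to each other on chromosome 11 and are nearly identical, which bears on every value given for either one. Their coding sequences, of 366 bases in the GENCODE 29 transcripts, differ at 11 positions and are 97.0% identical. Of all stretches of 50 bases in the SAA2 transcript, 53.1% also occur in SAA1, and of stretches of 100 bases 36.4% do, so a read from these parts fits both genes. The 90 coding bases with the most differences (bases 215 to 304, counted from the first base of the start codon) hold 9 of the 11, and the differing bases are in capitals.
SAA1: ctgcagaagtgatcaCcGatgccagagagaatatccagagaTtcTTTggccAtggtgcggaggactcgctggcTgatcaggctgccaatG
SAA2: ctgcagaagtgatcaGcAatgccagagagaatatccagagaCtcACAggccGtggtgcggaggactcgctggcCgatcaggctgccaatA
A read that covers this stretch can be assigned to one gene, and how the counting treated reads that fit both is not given in the sources used here. SAA1 and SAA2 are therefore also given as a sum.

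Per transcript length, SAA1 had the highest level of the 6 listed genes in adherent cells and in every other group. Its normalized counts were 15.1 and 14.003 in adherent cells and stood at 2732 and 2860.3 at 16 h. At 5 d SAA1 stood at 217 and 166. The groups did not overlap, and the 5 d libraries lay between the other groups. SAA2 went from 0 and 1 read in adherent cells to normalized counts of 285 and 264 at 16 h, and stood at 6.21 and 6.16, or 6 and 4 reads, at 5 d. The sum of both genes was 15.1 and 14.6 in adherent cells, 3016 and 3124 at 16 h and 224 and 173 at 5 d. On the log2(normalized count + 1) scale, which understates changes of low genes, the sum stood 7.60 ± 0.14 (SE) higher at 16 h than in adherent cells, and 3.64 ± 0.14 higher at 5 d. From 16 h to 5 d the sum fell by 3.96 ± 0.14. Given as a ratio of mean normalized counts, SAA1 stood 192-fold above adherent cells at 16 h and 13.2-fold above them at 5 d. SAA2 stood 901-fold above at 16 h, with an exact Poisson 95% interval of 162 to 35577 for the 1 adherent read, which covers counting error only. Without the first adherent library, which had 0 SAA2 reads, that ratio was 450.4. In bulk RNA, a larger share of cells making a transcript and more transcript in each cell cannot be told apart.

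The SAA2 share of the reads of both genes differed between the culture times. It was 9.43% (exact binomial 95% interval 8.38 to 10.6) and 8.44% (7.40 to 9.59) in the 16 h libraries, and 2.78% (1.03 to 5.95) and 3.57% (0.982 to 8.89) in the 5 d libraries. The interval of the first 5 d library lies below those of both 16 h libraries, and that of the second overlaps them, since it rests on 4 SAA2 reads. In the 48 h spheres of both RNA interference experiments the share was 13.1% to 15.6%, in controls and knockdowns alike. These shares rest on 733 to 16157 reads of both genes in the siNC and siSCIRT libraries and on 389 and 494 with siEZH2. Every 48 h share was above both 16 h shares. These libraries come from separate tables, whose read assignment may differ, and its part in the share was not tested.

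**Figure D2:**
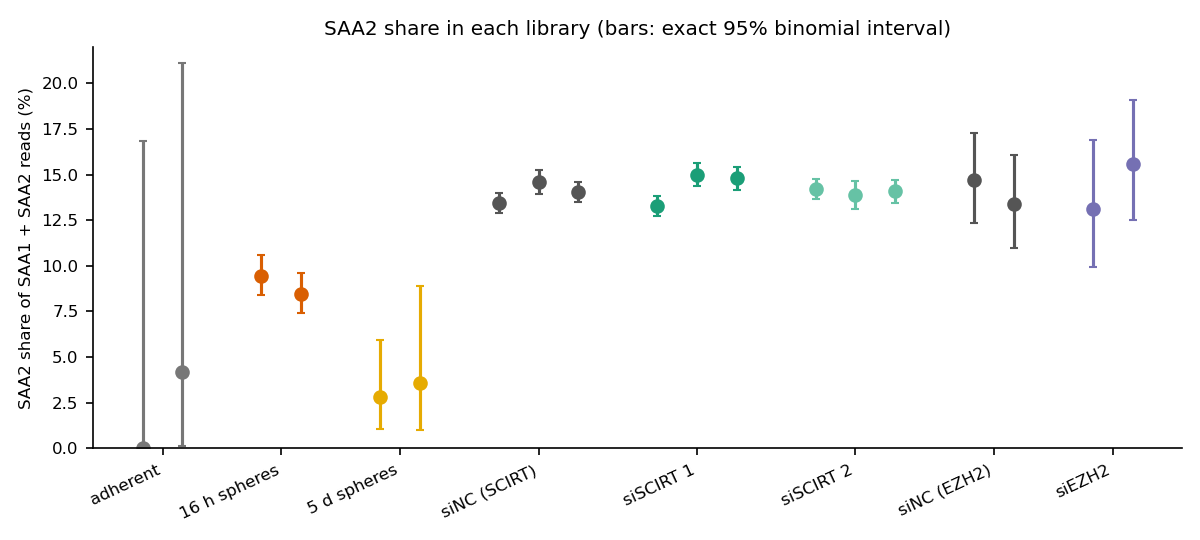
SAA2 reads as a percentage of SAA1 plus SAA2 reads (vertical axis) in each library, grouped by condition, with exact 95% binomial intervals. The 16 h libraries lie at 8.44% and 9.43%, the 5 d libraries at 2.78% and 3.57%, and all libraries of the 48 h spheres between 13.1% and 15.6%.

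LBP, which hands lipopolysaccharide to CD14 and TLR4, had 2 and 1 reads in adherent cells. Its normalized counts were 845 and 871 at 16 h and 6.21 and 9.24 at 5 d. Mean LBP at 16 h stood 810-fold above adherent cells (exact Poisson 95% interval 277 to 3929 for the 3 adherent reads, and 1409-fold without the first adherent library) and 111-fold above the 5 d spheres (63.6 to 215). SERPINA1, or alpha-1 antitrypsin, the inhibitor of neutrophil elastase, had 1 and 4 reads in adherent cells. Its normalized counts were 403 and 402 at 16 h and 20.7 and 18.5 at 5 d. Mean SERPINA1 at 16 h stood 252-fold above adherent cells, with an exact Poisson 95% interval of 108 to 777 for the 5 adherent reads. Without the first or the second adherent library the ratio was 165 or 533. SERPINA1 stood 20.5-fold higher at 16 h than at 5 d. Both genes had their 16 h libraries far above the others, and their 5 d libraries above the adherent ones. LBP was the second most abundant of the listed genes per transcript length at 16 h, at 40.7 RPKM (RPM per kilobase of transcript), against 385 for SAA1, 37.1 for SAA2, 10.6 for SERPINA1, 6.90 for CHI3L2 and 1.20 for LCN2. SERPINA3, alpha-1 antichymotrypsin, is named in the RNA interference tables at 0 to 6 reads per library.

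CHI3L2, a chitinase-like protein made by cartilage cells among others, had 0 reads in both adherent libraries. Its normalized counts were 172 and 150.2 at 16 h and 13.5 and 21.6 at 5 d. Against a floor of 3 reads in each adherent library, mean CHI3L2 was at least 78.7-fold higher at 16 h and at least 8.56-fold higher at 5 d. The 16 h mean of CHI3L2 was 9.19-fold that of 5 d. CHI3L1, its better-known relative (YKL-40), had 0 to 12 reads per library in the siSCIRT table and 1 or 2 in the siEZH2 table.

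LCN2 did not share the rise that led to the choice of these genes. It had 12 and 5 reads in adherent cells, 9 and 10 at 16 h, and 2 and 0 at 5 d. In normalized counts these were 9.06 and 3.04, 9.59 and 12.2, and 2.07 and 0. Mean LCN2 at 16 h was 1.80-fold the adherent mean (3.58-fold without the first adherent library), and the higher adherent value, 9.06, lay just under the lower 16 h value, 9.59. With a mean under 10 normalized counts, LCN2 did not pass the filter of the culture table. Of the 8 genes, 5 passed it. Outside the 16 h libraries, SAA2, LBP and CHI3L2 had means under 10, so they passed through the libraries for whose rise they were chosen. The counts that follow were fixed by that choice and say nothing about the set. All 5 stood at least 2-fold higher at 16 h than in adherent cells (8.95% of the 13789 genes that passed). They also did so at 5 d (8.30%), and all 5 stood at least 2-fold lower at 5 d than at 16 h (5.55%). With a pseudocount of 8, the number at 5 d against adherent cells was 3.

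Promoter sequences from 250 bases before to 50 bases after the start were at hand from RefSeq (GRCh38.p14) for 5 of the 8 genes (LCN2, CHI3L1, CHI3L2, SERPINA1 and SERPINA3). They were searched on both strands for GGG and CC with any 5 bases between them (NF-kappaB), TTNNGNAA (C/EBP) and TTCNNNGAA (STAT), the motifs of the factors of acute-phase signalling. The CHI3L2 promoter is shown because it holds all 3 motifs within 68 bases, and that of LCN2 because the control levels of this gene differed most between the RNA interference experiments. CHI3L2 has 2 listed starts, and its bases are counted from the first. Its STAT match lies at -62 to -54 from that start and at -116 to -108 from the second. Of the 5 genes only CHI3L2 held the STAT letters. The NF-kappaB match of SERPINA1 lay after the start, at bases 31 to 40, and its second promoter held a C/EBP match. SERPINA3 held an NF-kappaB match at -67 to -58 that overlaps a C/EBP match at -63 to -56. CHI3L1 held 2 C/EBP matches. These last 2 genes had few reads, as given above, so matches also occur in members that are hardly expressed here. Matches are in capitals. In CHI3L2 they are, in order, C/EBP, STAT, C/EBP and 2 overlapping NF-kappaB matches, while LCN2 holds 2 overlapping NF-kappaB matches on opposite strands and a C/EBP match.
CHI3L2, bases -88 to -21 from the start, chr1:111227571-111227638, plus strand: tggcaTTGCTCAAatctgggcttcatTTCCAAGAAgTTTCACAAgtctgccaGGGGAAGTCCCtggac
LCN2, bases -181 to -131 from the start, chr9:128149272-128149322, plus strand: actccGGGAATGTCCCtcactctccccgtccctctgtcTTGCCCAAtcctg
Among all 35116 promoters of this length, 58.7% hold the NF-kappaB letters, 36.8% the C/EBP letters and 7.66% the STAT letters, so a match alone is common. The share that holds all 3 is not given here. These are matches of letters and not measured binding.

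The signals and factors upstream of acute-phase genes were compared between culture conditions with limma, over the 13789 genes that passed the filter. Of all these genes 53.9% were called at 16 h (Benjamini-Hochberg adjusted p under 0.05), 27.4% higher and 26.5% lower. All 7 receptors of the list rose at 16 h. They included IL1R1, the signalling receptor of IL-1, by 2.05 ± 0.25 (SE, limma adjusted p = 8.88e-09), LIFR by 1.25 ± 0.10 (limma adjusted p = 1.03e-13), TNFRSF1A by 0.85 ± 0.05 (limma adjusted p = 2.37e-18) and IL1RAP, the IL-1 co-receptor, by 1.09 ± 0.14 (limma adjusted p = 1.19e-08). Of 5 cytokines tested, 2 rose and 2 fell. IL6 rose by 2.27 ± 0.27 and IL1A by 2.52 ± 0.51, whereas IL11 fell by 2.58 ± 0.25 and LIF by 0.34 ± 0.12 (limma adjusted p = 3.77e-09, 6.26e-05, 1.28e-10 and 0.0118). The LIF call was lost when the first adherent or the second 16 h library was left out. Of 10 transducers and transcription factors tested, 6 rose and 1 fell. The one that fell was the NF-kappaB subunit NFKB1, by 0.33 (limma adjusted p = 0.000733). CEBPD rose by 3.63 ± 0.11, CEBPB by 1.84 ± 0.05, NFKBIZ, a nuclear NF-kappaB cofactor, by 1.72 ± 0.18 and STAT3 by 0.40 ± 0.05 (limma adjusted p = 2.74e-26, 3.64e-28, 1.19e-10 and 4.45e-08). The median log2 difference of the receptors was 1.09, that of the factors 0.27 and that of the cytokines 0.07, beside -0.01 for all genes.

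Of the other positive acute-phase genes, 13 of 20 are listed in the culture table and 4 passed the filter. C3, the central complement component, rose by 6.36 ± 0.41 at 16 h, from a mean of 2.73 to 305 normalized counts (limma adjusted p = 4.65e-16). With those means, C3 passed the filter at a mean of 10 largely through its 16 h libraries. The p-values of C3 in the contrasts with 16 h do not allow for that. CFB, complement factor B, rose by 2.21 ± 0.56 and CP, ceruloplasmin, by 1.51 ± 0.19, while PTX3, a long pentraxin, fell by 0.53 ± 0.07 (limma adjusted p = 0.000951, 1.72e-08 and 1.49e-07). From 16 h to 5 d, where 48.3% of all genes were called (22.8% higher and 25.5% lower), all 4 fell. C3 fell by 4.31 ± 0.41, CFB by 2.29 ± 0.56, CP by 1.86 ± 0.19 and PTX3 by 0.39 ± 0.07 (limma adjusted p = 4.17e-11, 0.000812, 2.34e-10 and 4.15e-05). Over the same interval 6 of the 10 factors fell, among them CEBPD by 1.60 ± 0.11, CEBPB by 0.95 ± 0.05, NFKBIZ by 1.39 ± 0.18 and RELA by 0.47 ± 0.05 (limma adjusted p = 5.86e-15, 9.15e-19, 2.55e-08 and 4.79e-09), and 1 rose, JAK1, by 0.30 ± 0.05 (limma adjusted p = 1.05e-05). Of 7 receptors 2 fell over this interval, OSMR by 0.51 ± 0.04 and IL6ST by 0.18 ± 0.04 (limma adjusted p = 1.69e-13 and 0.000107), the latter not called after quantile normalization (adjusted p = 0.393). IL1A fell by 1.82 ± 0.51, a call lost without the second 16 h library, and LIF rose by 0.30 ± 0.12, a call lost without the second 16 h or the second 5 d library and with DESeq2 (limma adjusted p = 0.00326 and 0.0314). IL6 differed by -0.23 ± 0.27 between 5 d and 16 h (limma adjusted p = 0.506), and at 5 d it was still 2.04 ± 0.27 above adherent cells (limma adjusted p = 4.39e-08). Of the list of receptors and binding partners of the encoded proteins, 7 genes were tested, of which 4 rose at 16 h and 2 fell. TLR2, a receptor of serum amyloid A, rose by 4.34 ± 0.14, and FPR1, a formyl peptide receptor on that list, by 4.98 ± 0.63. TLR4, the lipopolysaccharide receptor served by LBP, fell by 0.97 ± 0.07 (limma adjusted p = 6.47e-23, 1.76e-08 and 3.65e-14 for TLR2, FPR1 and TLR4). TMEM219, a proposed CHI3L1 receptor, rose by 0.55 ± 0.10 at 16 h (limma adjusted p = 7.93e-06). From 16 h to 5 d, TLR2 fell by 2.78 ± 0.14, TMEM219 by 0.67 ± 0.10 and LY96, the partner of TLR4, by 1.75 ± 0.42, and TLR4 rose by 0.43 ± 0.07 (limma adjusted p = 1.82e-17, 4.15e-07, 0.000728 and 7.6e-06). Of 2 chitinase family genes tested, CTBS, a lysosomal chitobiase, rose by 0.78 ± 0.11 at 16 h and fell by 0.57 ± 0.11 from 16 h to 5 d, and CHID1 fell by 0.92 ± 0.11 over the latter interval (limma adjusted p = 2.5e-07, 6.92e-05 and 5.5e-09).

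The 48 h control spheres of the RNA interference experiments had very different levels of these genes, although the labels give them the same medium and time. SAA1 plus SAA2 stood at 234 ± 27.3 RPM (SD, n = 3) in siNC of the SCIRT experiment and at 21.9 ± 3.31 (SD, n = 2) in siNC of the EZH2 experiment, with 281 and 290.4 in the 16 h spheres. CHI3L2 stood at 39.8 ± 2.54 and 4.09 ± 0.44, LBP at 44.1 ± 5.55 and 13.2 ± 2.59, and SERPINA1 at 34.6 ± 1.82 and 19.4 ± 1.65 RPM, in the same order. The widest gap was that of LCN2, with 35.2 ± 3.12 RPM in the SCIRT experiment against 1.398 ± 0.208 in the EZH2 experiment, a ratio of 25.2. Other genes of the pathway lists differed in the size of the ratio, which was 13.2 for C3, 5.13 for IL6, 1.95 for A2M, 1.16 for CFB, 0.84 for CEBPB and 0.82 for CEBPD. The control libraries of the 2 experiments did not overlap for any of the 6 genes, and over the 15369 genes that passed in both tables they did not in 66.1%. The tables were made separately, so no test was made, and the experiment and its processing cannot be told apart.

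With siSCIRT 1, LBP rose and SERPINA1 fell, and the other 4 genes tested were not called. The normalized counts of LBP were 2689, 2322 and 2022 in siNC and 3591, 3258 and 3046 under siSCIRT 1. Under siSCIRT 2 they were 2770.5, 2312 and 2707. The siSCIRT 1 libraries of LBP all lay above siNC, and the siSCIRT 2 libraries overlapped it. LBP rose by 0.50 ± 0.10 on the log2 scale with siSCIRT 1 (limma adjusted p = 0.00545), and differed by 0.15 ± 0.10 with siSCIRT 2 (limma adjusted p = 0.403). For SERPINA1 they were 1972, 1723 and 1811 in siNC, 1375, 1251 and 1201 under siSCIRT 1, and 1527, 1344 and 1376 under siSCIRT 2. All 6 knockdown libraries of SERPINA1 lay below all 3 controls. SERPINA1 fell by 0.52 ± 0.08 with siSCIRT 1 and by 0.37 ± 0.08 with siSCIRT 2 (limma adjusted p = 0.000742 and 0.00961). Without the first siNC library the SERPINA1 call with siSCIRT 2 was lost (limma adjusted p = 0.0576). The summed macrophage and neutrophil markers stood at 19.3 to 22.3 RPM in siNC, 22.6 to 25.3 with siSCIRT 1 and 21.8 to 24.2 with siSCIRT 2.

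Of the 6 genes tested with siSCIRT 1, 1 was called higher and 1 lower, where 10.2% of all 16607 genes were called (4.63% higher and 5.56% lower). With siSCIRT 2, 1 was called lower, where 9.54% of all genes were called and 5.05% lower. With siSCIRT 1, groups did not overlap for SAA2, LBP and SERPINA1, and over all genes in 28.1%. With siSCIRT 2 they did not overlap for SERPINA1, and over all genes in 26.5%. Averaged over both siRNAs, LBP rose by 0.33 ± 0.09 and SERPINA1 fell by 0.45 ± 0.07 (limma adjusted p = 0.0222 and 0.000579), where 14.4% of all genes were called (6.82% higher and 7.58% lower). That LBP call was lost without the second siNC, the third siNC or the third siSCIRT 2 library (limma adjusted p = 0.0571, 0.167 and 0.052). SAA1 plus SAA2 had normalized counts of 13552, 10647 and 13088 in siNC, 15864, 13145 and 12502 under siSCIRT 1 and 15225, 10956 and 12336 under siSCIRT 2, and these ranges overlapped. The mean difference of the sum was 0.10 (95% interval -0.11 to 0.31, limma adjusted p = 0.61). CHI3L2 differed by 0.06 (-0.11 to 0.23) and LCN2 by -0.12 (-0.33 to 0.10) in the same average (limma adjusted p = 0.702 and 0.542). No difference between siSCIRT 1 and siSCIRT 2 was called for any gene of the table by limma, with 451 of 16607 genes at an unadjusted p under 0.05. edgeR called 0 and DESeq2 6. LBP was 0.35 (0.15 to 0.55) higher with siSCIRT 1 than with siSCIRT 2 and its libraries did not overlap (limma adjusted p = 1). The difference was 0.22 (-0.03 to 0.47) for LCN2, 0.14 (-0.08 to 0.36) for SAA2, 0.14 (-0.06 to 0.33) for CHI3L2, 0.11 (-0.14 to 0.36) for SAA1 and -0.15 (-0.31 to 0.01) for SERPINA1, also with a limma adjusted p of 1. These are normal 95% intervals built on the limma SE and rest on the spread among libraries. Intervals from the moderated t distribution of limma would be somewhat wider here. SERPINA3 and CHI3L1, with at most 6 and 12 reads in a library, did not pass the filter of either RNA interference table. The median of the 6 genes for the mean of both siRNAs was 0.08, beside 0.01 for all genes.

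With siEZH2, the levels of all 6 genes tested were lower than in siNC by the fitted value, and 4 of them were called. SAA1 had normalized counts of 677 and 583 in siNC and 421 and 377 with siEZH2. LBP had 374 and 519 in siNC and 241 and 261 with siEZH2. LCN2 had 50.7 and 43.1 against 31.1 and 18.996, and CHI3L2 144 and 130.3 against 97.1 and 82.3. For these 4 genes both knockdown libraries lay below both controls. SAA1 fell by 0.66 ± 0.14, LBP by 0.81 ± 0.15, LCN2 by 0.91 ± 0.29 and CHI3L2 by 0.61 ± 0.20 (SE, limma adjusted p = 0.000167, 8.13e-06, 0.0303 and 0.0331). SAA2, at 117 and 89.9 in siNC and 63.5 and 69.7 with siEZH2, differed by -0.62 ± 0.22 (limma adjusted p = 0.0578), and was called with edgeR (adjusted p = 0.0461) and with a filter at a mean of 50 (limma adjusted p = 0.0459). The sum of both serum amyloids fell by 0.65 ± 0.14 (limma adjusted p = 0.00012). SERPINA1 had 597 and 707 in siNC and 619 and 579.8 with siEZH2, which overlapped, and differed by -0.12 (95% interval -0.38 to 0.15, limma adjusted p = 0.697).

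In this comparison 6.84% of all 15823 genes were called and 2.94% of all genes were called lower. Groups did not overlap in 47.9% of genes, as for 5 of these 6. The median of the 6 genes was -0.64, beside 0.01 for all genes. The calls rest on 2 libraries a group and on a spread that limma took almost wholly from genes of like level. A small adjusted p here therefore does not measure how closely the libraries of that gene match. Without the first siNC library the SAA1 call was lost (limma adjusted p = 0.118), without the second that of LBP (0.108), and those of LCN2 and CHI3L2 without either of these or the second siEZH2 library. The call of the serum amyloid sum was lost without the first siNC library (limma adjusted p = 0.124). LCN2 and CHI3L2 also lost their calls with quantile normalization (adjusted p = 0.0845 and 0.0605) and with DESeq2 (adjusted p = 0.31 and 0.187). With no filter on low values, limma called 0 genes of the whole table, with 3413 of 28870 at an unadjusted p under 0.05, and the smallest adjusted p of the 6 genes was 0.363. The summed macrophage and neutrophil markers stood at 10.5 to 12.7 RPM in siNC and 8.36 to 9.47 with siEZH2, and their part in the falls was not tested.

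**Figure D3:**
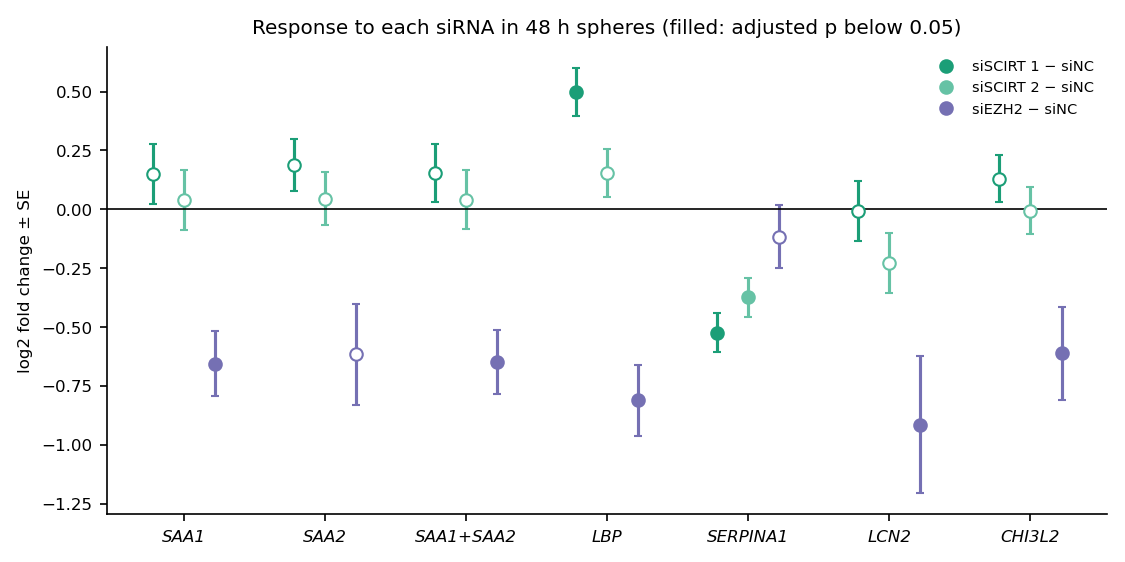
Log2 fold change with its standard error (vertical axis) of 6 genes and the SAA1 plus SAA2 sum for siSCIRT 1, siSCIRT 2 and siEZH2, each against the siNC of its own table; filled points have a limma adjusted p under 0.05. The siEZH2 points of SAA1, LBP, LCN2 and CHI3L2 lie between -0.61 and -0.91, and the siSCIRT points of SERPINA1 at -0.52 and -0.37.

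The pathway genes were tested in the same fits. With SCIRT knockdown (mean of both siRNAs), IL6 fell by 0.52 ± 0.09 and IL6ST, the shared gp130 receptor chain of the IL-6 family, rose by 0.74 ± 0.09 (limma adjusted p = 0.00202 and 0.000131). A2M, a broad protease inhibitor, rose by 0.55 ± 0.07, CP rose by 0.37 ± 0.08 and PTX3 fell by 0.36 ± 0.07 (limma adjusted p = 0.000106, 0.00456 and 0.00258). Of 12 other positive acute-phase genes tested there, 4 rose and 1 fell, where 6.82% of all genes were called higher and 7.58% lower. The further calls were HP, up by 1.20 ± 0.30, and SERPING1, up by 0.62 ± 0.17 (limma adjusted p = 0.013 and 0.0236). That of HP was lost without the first or the third siNC library, and that of SERPING1 without the third siNC or the second siSCIRT 1 library. Of 5 cytokines, 2 fell and 1 rose, IL1A falling by 0.54 ± 0.14 and IL11 rising by 0.32 ± 0.10 (limma adjusted p = 0.0201 and 0.0443). Of 10 factors, NFKB1 fell by 0.20 ± 0.06 and CEBPB rose by 0.31 ± 0.09 (limma adjusted p = 0.0236 and 0.0271). Of 11 receptors and partners of the encoded proteins, IL13RA2, a proposed CHI3L1 receptor, fell by 1.59 ± 0.38, while CD14 rose by 0.35 ± 0.09 and LRP2 (megalin), which takes up LCN2, by 0.52 ± 0.17 (limma adjusted p = 0.0111, 0.0128 and 0.0499). Each of these 7 calls was lost in at least 1 fit with a library left out. The IL1A call was lost without the first or the second siNC library, those of IL13RA2 and CD14 without the second, that of CEBPB without the second siNC, the third siNC or the third siSCIRT 1 library, and that of NFKB1 without any 1 siNC library or the third siSCIRT 1 library. IL11 and LRP2 lost theirs without the first or the third siNC library, any 1 siSCIRT 1 library, or the first or the third siSCIRT 2 library. With siEZH2, IL1B rose by 0.93 ± 0.13 and IL1A by 0.64 ± 0.13 (limma adjusted p = 1.2e-09 and 9.9e-05), while IL6 differed by 0.34 ± 0.14 (limma adjusted p = 0.125). IL6ST fell by 0.49 ± 0.12, LIFR by 0.48 ± 0.12 and IL1RAP by 0.36 ± 0.12 (limma adjusted p = 0.00225, 0.00194 and 0.0447). All 3 calls were lost without the first siNC library, those of IL6ST and IL1RAP also without the second siEZH2 library, and that of IL1RAP without the second siNC library and with DESeq2. PTX3 rose by 0.58 ± 0.12 and A2M by 0.57 ± 0.14, while HPX, hemopexin, fell by 1.63 ± 0.36 and CFB by 0.55 ± 0.14 (limma adjusted p = 7.84e-05, 0.00152, 0.000415 and 0.00257). The CFB call was lost without the first siNC or the first siEZH2 library, that of HPX without the first siNC or the second siEZH2 library, and that of A2M without the second siNC or the second siEZH2 library. CD14 fell by 0.62 ± 0.19 (limma adjusted p = 0.0233), a call lost without the first siNC, the second siNC or the first siEZH2 library and with DESeq2. Of 10 transcription factors and transducers, 0 were called by limma with siEZH2, with 3 at an unadjusted p under 0.05, and edgeR and DESeq2 also called 0.

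**Figure D4:**
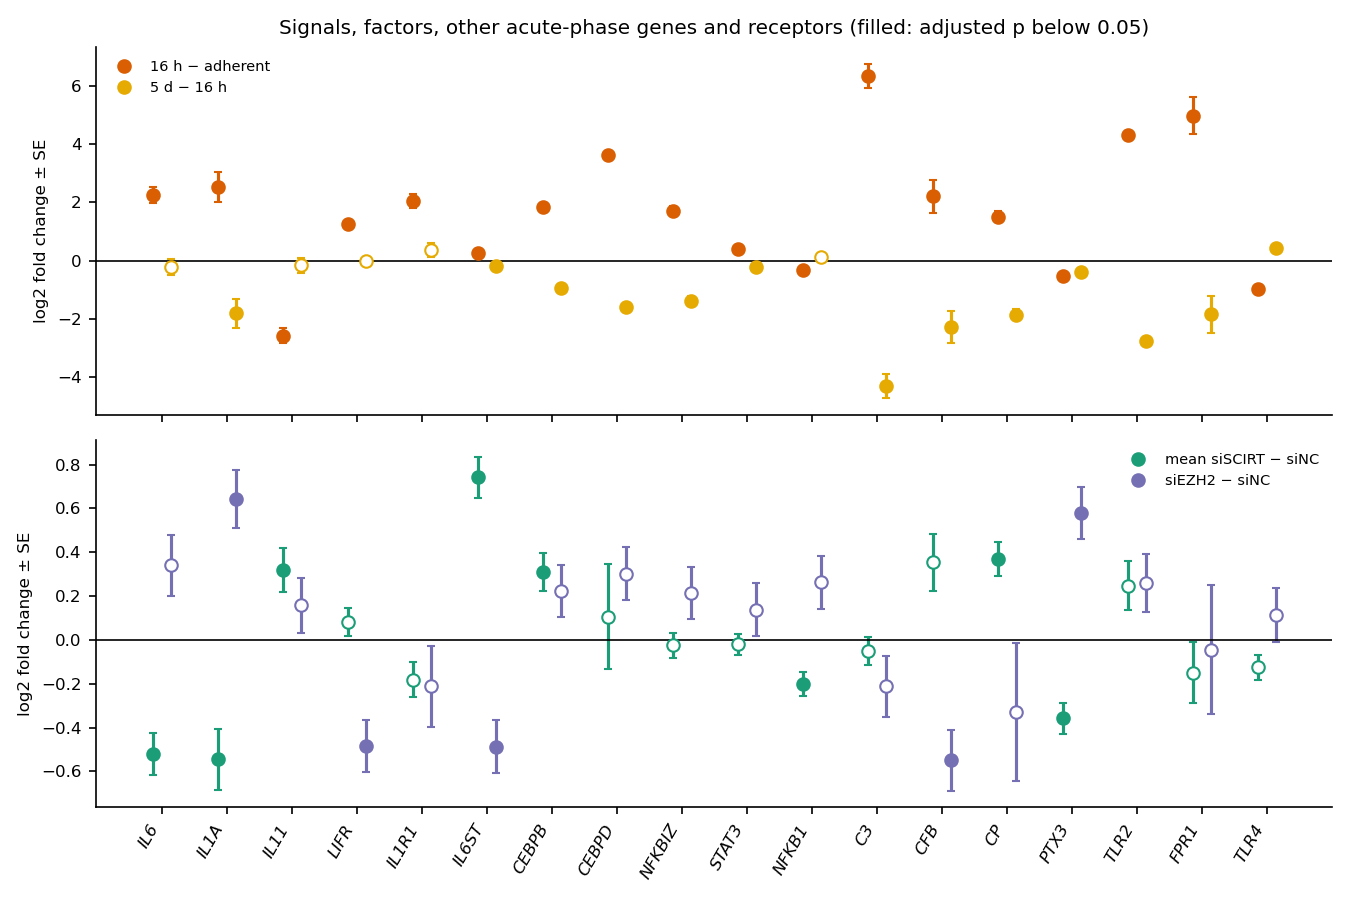
Log2 fold change with its standard error (vertical axis) of signals, factors, other acute-phase genes and receptors, for the culture contrasts (upper panel) and the knockdowns (lower panel, with a narrower scale); filled points have a limma adjusted p under 0.05. C3 stands at 6.36 at 16 h and -4.31 from 16 h to 5 d, and IL6ST at 0.74 with siSCIRT and -0.49 with siEZH2.

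The difference between the responses was tested in one fit over both RNA interference tables, each response against its own siNC. The siEZH2 response minus the mean siSCIRT response was -1.14 ± 0.18 for LBP, -0.75 ± 0.18 for the SAA1 plus SAA2 sum, -0.67 ± 0.16 for CHI3L2 and -0.80 ± 0.24 for LCN2 on the log2 scale (SE, limma adjusted p = 0.000177, 0.00915, 0.0063 and 0.0335). SAA1 and SAA2 alone were at -0.75 ± 0.19 and -0.73 ± 0.18 (limma adjusted p = 0.0114 and 0.00888). SERPINA1 was at 0.33 ± 0.14 (limma adjusted p = 0.104). Thus 5 of 6 genes were called lower, where 15.0% of all 15369 genes were called and 6.51% lower. Without the first siNC library of the EZH2 experiment, 1 of the 6, LBP, was called lower. SERPINA3 and CHI3L1 did not pass the filter. The SAA1 difference was also lost without the second siEZH2 library (limma adjusted p = 0.0585), that of SAA2 without the first siEZH2 library (0.0581), and that of LCN2 with a pseudocount of 8 (0.0565), with edgeR (0.122) and without the second siEZH2 library (0.198), the second or the third siNC library of the SCIRT experiment (0.0664 and 0.0709) or the third siSCIRT 2 library (0.0529). Among the pathway genes the same difference was -1.23 ± 0.16 for IL6ST, -0.56 ± 0.12 for LIFR, 0.86 ± 0.16 for IL6, 1.15 ± 0.20 for IL1B and 1.19 ± 0.22 for IL1A (limma adjusted p = 4.18e-05, 0.00241, 0.000671, 0.000959 and 0.00169). It was 0.47 ± 0.10 for NFKB1, -0.97 ± 0.18 for CD14, 0.94 ± 0.12 for PTX3 and -0.90 ± 0.22 for CFB (limma adjusted p = 0.00364, 0.000584, 9.77e-06 and 0.00889). SERPING1 and HPX were at -0.94 ± 0.27 and -2.11 ± 0.65 (limma adjusted p = 0.0227 and 0.0329). The calls of CFB, SERPING1 and HPX were lost without the first siNC library of the EZH2 experiment, that of CFB also without the first siEZH2 library, that of SERPING1 without the first siEZH2, the second siNC of the EZH2 experiment or the third siNC of the SCIRT experiment, and that of HPX without the second siEZH2, the second siNC of the EZH2 experiment, the third siNC of the SCIRT experiment or the second siSCIRT 1 library. The 2 responses were measured in separate experiments with control levels as unequal as given above, and the siRNA and the experiment cannot be told apart.

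Over all 19 libraries, with each gene centred within its table, the SAA1 plus SAA2 sum followed CHI3L2 (Pearson r = 0.989), SERPINA1 (0.982) and LBP (0.957). The 5 other genes most alike among 12563 compared were CD74, the invariant chain of MHC class II (r = 0.991), HLA-DPA1, an MHC class II chain (0.991), CXCL1, a neutrophil chemokine (0.986), SLC44A1 (0.981) and ABCA6 (0.980). These are descriptions over points that share tables and conditions, and the 16 h libraries lie far from the rest. SAA1, SAA2, CHI3L2, SERPINA1 and LBP were chosen for a rise at 16 h, so a close match among them was built in by that choice. LCN2, which did not pass the filter of the culture table, was not compared. The same ranking for CHI3L1 could not be made, since the culture table does not list it.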

How the data were processed

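Total RNA libraries (TruSeq RNA v2, per the labels' protocols) were processed by the authors with CASAVA 1.4, TopHat2, Partek and the hg19 build, per the submitters' processing notes, which give no role for each. The deposited culture and siSCIRT values are variance-stabilized log2 values and the deposited siEZH2 values are a linear normalized signal, that is, counts divided by size factors, judged from the values. The log2 values were turned back into normalized counts, and whole reads were recovered for 100% of values in all 19 libraries (within 0.05 reads). Columns that carry only si and a number were taken as siSCIRT 1 and its replicate, since those of siSCIRT 2 carry si2 before a replicate number; the second such column, si2, could be read either way, and the labels do not settle it. Genes with a mean of at least 10 normalized counts were fitted with limma 3.58.1 (R 4.3.3) on log2(normalized count + 1), with trend and robust moderation and Benjamini-Hochberg adjustment over all genes tested, two-sided. The code was tested on simulated data. Ratios are of mean normalized counts, and their 95% intervals cover counting error only. Those of log2 differences are normal intervals built on the limma SE, which rests on the spread among libraries, moderated across genes. Every gene of the set that could be tested is named in every comparison. Of each pathway list, up to 4 called genes by smallest adjusted p are named for 16 h against adherent cells, 5 d against 16 h, the mean of both siSCIRT, siEZH2 and the difference between the responses, with a few others by their place in the account; the remaining comparisons are given for the set only. The genes and lists were chosen with earlier results of these data known. Other settings tried were edgeR 4.0.16, DESeq2 1.42.0, quantile normalization, a replicate block, the deposited log2 values, leaving out each library, a pseudocount of 8, and filters at 50 or none. Replicate numbers were not taken to pair libraries. Transcript lengths came from GENCODE 29 (GRCh38).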

Additional observations from a re-analysis of the deposited data

Results flagged for a closer look

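The responses to siEZH2 and to siSCIRT differed for 5 of the 6 genes tested and for the SAA1 plus SAA2 sum, by a test of the difference itself, where 15.0% of all 15369 genes were called and 6.51% lower. Without the first siNC library of the EZH2 experiment, 1 of the 6 was called and the call of the sum was lost (limma adjusted p = 0.063). The siEZH2 response minus the mean siSCIRT response was -0.75 for SAA1, -0.732 for SAA2, -1.14 for LBP, -0.796 for LCN2, -0.673 for CHI3L2 and -0.748 for the sum, on the log2 scale (limma adjusted p = 0.0114, 0.00888, 0.000177, 0.0335, 0.0063 and 0.00915). The LBP difference combined a mean rise of 0.33 with siSCIRT and a fall by 0.81 with siEZH2. That mean averages 0.50 with siSCIRT 1 and 0.15 with siSCIRT 2, the latter not called (limma adjusted p = 0.403). For the other 4 genes the mean siSCIRT response lay between -0.12 and 0.12. The siRNA and the experiment cannot be told apart in these differences.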

How the results depend on the processing

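The variance-stabilized log2 values as deposited, whose scale compresses low genes, gave 0 of these genes at least 2-fold higher at 16 h and 0 at 5 d (5 in each case otherwise), and a pseudocount of 8 gave 3 at 5 d. Replicate numbers were not taken as pairs in the main fits. Same-numbered siSCIRT libraries correlated by 0.02 to 0.30 and different-numbered ones by -0.21 to 0.19. In that experiment 5 of 9 libraries correlated best with their own number. These values do not settle whether same-numbered siSCIRT libraries share a source, and the main fits leave out any such sharing. With the replicate block, 2 genes were called lower with siSCIRT 2 (1 without it), 2 with siEZH2 (4 without it), 1 was higher in the difference between the responses (0 without it), and 8 pathway genes were higher with siSCIRT 2 (5 without it). The added call with siSCIRT 2 was LCN2, at -0.23 (limma adjusted p = 0.0288 with the block). Across all genes the block moved the calls from 1693 to 3144 with siSCIRT 1, from 1584 to 3110 with siSCIRT 2 and from 1082 to 532 with siEZH2. Without a filter, siEZH2 gave 0 genes of this set and 0 pathway genes higher or lower (4 and 6 with it), the change of the SAA1 plus SAA2 sum, -0.65, lost its call (limma adjusted p = 0.363), and 3 pathway genes were lower with siSCIRT 1 (5 with it). Quantile normalization and DESeq2 each called 2 genes of the set lower with siEZH2, and DESeq2 called 3 pathway genes lower. Values near 0 changed sign: LCN2 with siSCIRT 1, -0.01, became 0.0011 with edgeR and 0.0023 with DESeq2, and CHI3L2 with siSCIRT 2, -0.01, became 0.00095 and 0.00038.

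With one library left out at a time, the genes called lower ran from 1 to 4 with siEZH2, 0 to 1 with siSCIRT 2 and 1 to 5 in the difference between the responses, and those called higher from 0 to 1 in the mean of both siSCIRT. Pathway genes called lower ran from 2 to 6 with siSCIRT 1, 1 to 3 with siSCIRT 2, 2 to 5 in the mean, 0 to 4 with siEZH2 and 3 to 7 in the difference, and those called higher from 2 to 6 with siSCIRT 2 and 4 to 10 in the mean. With siSCIRT 1, LCN2 ran from -0.145 to 0.0848. With siSCIRT 2, SAA1 ran from -0.0876 to 0.147, SAA2 from -0.0920 to 0.162, CHI3L2 from -0.0782 to 0.0791 and the sum from -0.0884 to 0.149. In the mean of both, SAA1 ran from -0.0173 to 0.166 and the sum from -0.00944 to 0.165. Between the 2 siRNAs SAA1 ran from -0.0030 to 0.237. With siEZH2, SERPINA1 ran from -0.24 to 0.0056 and the sum from -0.77 to -0.53, and in the difference between the responses the sum ran from -0.87 to -0.63. A group left with 1 library was assumed to vary like the others. The cause of these changes was not tested. Few reads limit the precision of the adherent values, which rest on 0 to 23 reads per gene and library.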
